A study of Mus musculus with 16 samples.

Results

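A group of 9 transcription factor genes of the interferon and interleukin-4 pathways was followed across sorted mouse phagocytes: the interferon regulatory factors Irf1, Irf2, Irf4, Irf5, Irf7, Irf8 and Irf9, and the signal transducers Stat2 and Stat6. They were chosen by symbol in the deposited count table, which holds 45664 gene entries, and all 9 were found and passed the filter on low counts. Total RNA of 4 populations was sequenced, with 4 libraries each. All mice were C57BL/6 adults aged 8 to 10 weeks, and no treatment or genetic change is named for the 4 populations. The extraction text in the labels conflicts with this, as it describes brainstem tissue of another mouse line after nerve axotomy. The gate for macrophages of collagenase-digested cornea was CD45+CD11b+CD64+F4/80+, and that for microglia of mechanically dissociated retina and of whole brain was CD45+CD11b+. Monocytes from bone marrow were gated on CD45, CD11b, CD115 and Ly6C. For cornea and retina, 10 mice were pooled per sample. The labels contradict each other on the pooling of the brain and bone marrow samples, and no source says which libraries came from separate animals, so a p-value here measures the spread between libraries.

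Interferons bind receptors that are coupled to Janus kinases, which phosphorylate STAT proteins. STAT2 and IRF9 are parts of the complex ISGF3, which binds interferon-stimulated response elements, while STAT dimers bind GAS elements. IRF7 is itself an interferon-stimulated gene and, once activated downstream of nucleic acid sensors, drives transcription of type I interferons. IRF1 activates and IRF2 opposes transcription at shared sites, IRF8 and IRF4 act with partners such as PU.1, IRF5 acts downstream of Toll-like receptors, and STAT6 carries the signal of interleukin-4 and interleukin-13. In macrophages IRF8 is known as a factor needed for microglia and monocyte development.

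The promoter sequences of 5 members are shown because the same factors act on each other's genes through short DNA elements. They come from RefSeq on build GRCm38.p6, read 5′ to 3′ on the gene's strand, and end at the base before the gene's start or, for Irf2 and Irf7, before the gene as GENCODE vM21 draws it. Capitals mark a match on either strand to any of 4 searched patterns: the response element core GAAANNGAAA, the GAS pattern TTCNNNGAA, the STAT6-type pattern TTCNNNNGAA and the ETS-IRF composite GGAANNGAAA. Matches that overlap are joined in 1 run of capitals.
Irf1 promoter, chr11:53769764-53770013, plus strand: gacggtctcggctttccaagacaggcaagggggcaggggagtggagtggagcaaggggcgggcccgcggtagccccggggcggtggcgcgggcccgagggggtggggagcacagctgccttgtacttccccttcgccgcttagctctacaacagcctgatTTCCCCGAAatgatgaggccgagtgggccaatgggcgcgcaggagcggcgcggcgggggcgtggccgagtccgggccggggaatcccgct
Irf2 promoter, chr8:46739495-46739731, plus strand: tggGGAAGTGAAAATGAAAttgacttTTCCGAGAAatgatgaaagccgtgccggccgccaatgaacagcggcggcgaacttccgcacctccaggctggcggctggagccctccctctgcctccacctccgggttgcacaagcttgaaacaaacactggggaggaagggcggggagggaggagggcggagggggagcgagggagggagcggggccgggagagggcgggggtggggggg
Irf7 promoter, chr7:141266482-141266674, minus strand: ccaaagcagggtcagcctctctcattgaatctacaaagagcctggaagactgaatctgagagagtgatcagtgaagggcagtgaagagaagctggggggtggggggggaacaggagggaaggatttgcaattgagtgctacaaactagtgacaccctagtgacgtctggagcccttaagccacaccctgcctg
Irf8 promoter, chr8:120736108-120736357, plus strand: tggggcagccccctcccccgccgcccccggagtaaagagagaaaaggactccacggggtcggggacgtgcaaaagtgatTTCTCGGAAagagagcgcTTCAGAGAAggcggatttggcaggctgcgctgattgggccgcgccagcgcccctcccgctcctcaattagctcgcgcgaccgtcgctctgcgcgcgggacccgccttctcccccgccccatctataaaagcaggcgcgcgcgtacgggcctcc
Stat2 promoter, chr10:128270248-128270497, plus strand: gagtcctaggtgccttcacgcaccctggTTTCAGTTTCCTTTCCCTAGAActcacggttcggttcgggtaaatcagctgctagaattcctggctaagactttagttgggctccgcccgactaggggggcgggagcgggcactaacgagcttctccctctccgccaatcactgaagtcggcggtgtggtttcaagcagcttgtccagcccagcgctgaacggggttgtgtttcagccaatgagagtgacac
The Irf1 promoter held 1 GAS match, which begins at position -90 from the start, and the Irf8 promoter held 2, at positions -171 and -153. The Irf2 promoter held an ETS-IRF composite that overlaps a response element core, followed by a GAS match. In the Stat2 promoter a response element core and an overlapping composite lay on the opposite strand, and a STAT6-type match overlapped the composite. The printed stretch of Irf7 held none of the 4 patterns. Among 32851 RefSeq promoter windows, which reach from 250 bases before to 50 bases after the start, 3.44% held the response element core, 8.3% the GAS pattern, 6.95% the STAT6-type pattern and 2.72% the composite. All 9 members had a RefSeq promoter, and in the same windows Irf4, Irf5 and Stat6 held none of the patterns, while Irf9 held a STAT6-type match just past its start. A match describes letters and was not tested for binding.

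The libraries held 8.68 to 21.8 M counts each. Lane 2 of the sequencer carried all 4 retinal libraries, cornea libraries 1 to 3 and monocyte library 1, and lane 3 carried all 4 brain libraries, cornea library 4 and monocyte libraries 2 to 4. A fit within lane 2 thus has 1 monocyte library and a fit within lane 3 has 1 cornea library, and the lone library is assumed to vary like the others. Levels are CPM, read counts scaled to library size with TMM factors, and a gene was called at an adjusted p under 0.05 in edgeR's quasi-likelihood test over 15754 genes. Summed microglia markers reached 24735 to 33194 CPM in retinal and 41226 to 46658 CPM in brain libraries, against at most 2087 CPM elsewhere, and classical monocyte markers 16606 to 23323 CPM in monocytes, against at most 1082 CPM elsewhere. Transcripts of other cells were also present: photoreceptor markers summed to 754 to 7139 CPM in retinal libraries, keratocyte and fibroblast markers to 1387 to 2583 CPM in cornea libraries, and granulocyte markers to 666 to 4317 CPM in monocyte libraries. Corneal epithelium markers summed to 229 to 1276 CPM in cornea libraries and erythroid markers to 369 to 2474 CPM in monocyte libraries. Their part in the results was not tested. In bulk RNA, fewer cells of a type and less RNA per cell cannot be told apart. Scaling by total counts alone moved the median log2 fold change of all genes from -0.12 to -0.92 between cornea and retina, from -0.0014 to -0.67 between cornea and brain, and from 0 to -0.67 between cornea and monocytes. Genes higher in the cornea then numbered 2922, against 8489 lower, in the comparison with retina (4862 and 5537 with TMM), 3566 against 7609 in that with brain (5318 and 5208), and 3503 against 7532 in that with monocytes (5078 and 4902). Between retina and brain the split was 1353 higher and 290 lower, against 1095 and 567 with TMM.

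**Figure D1:**
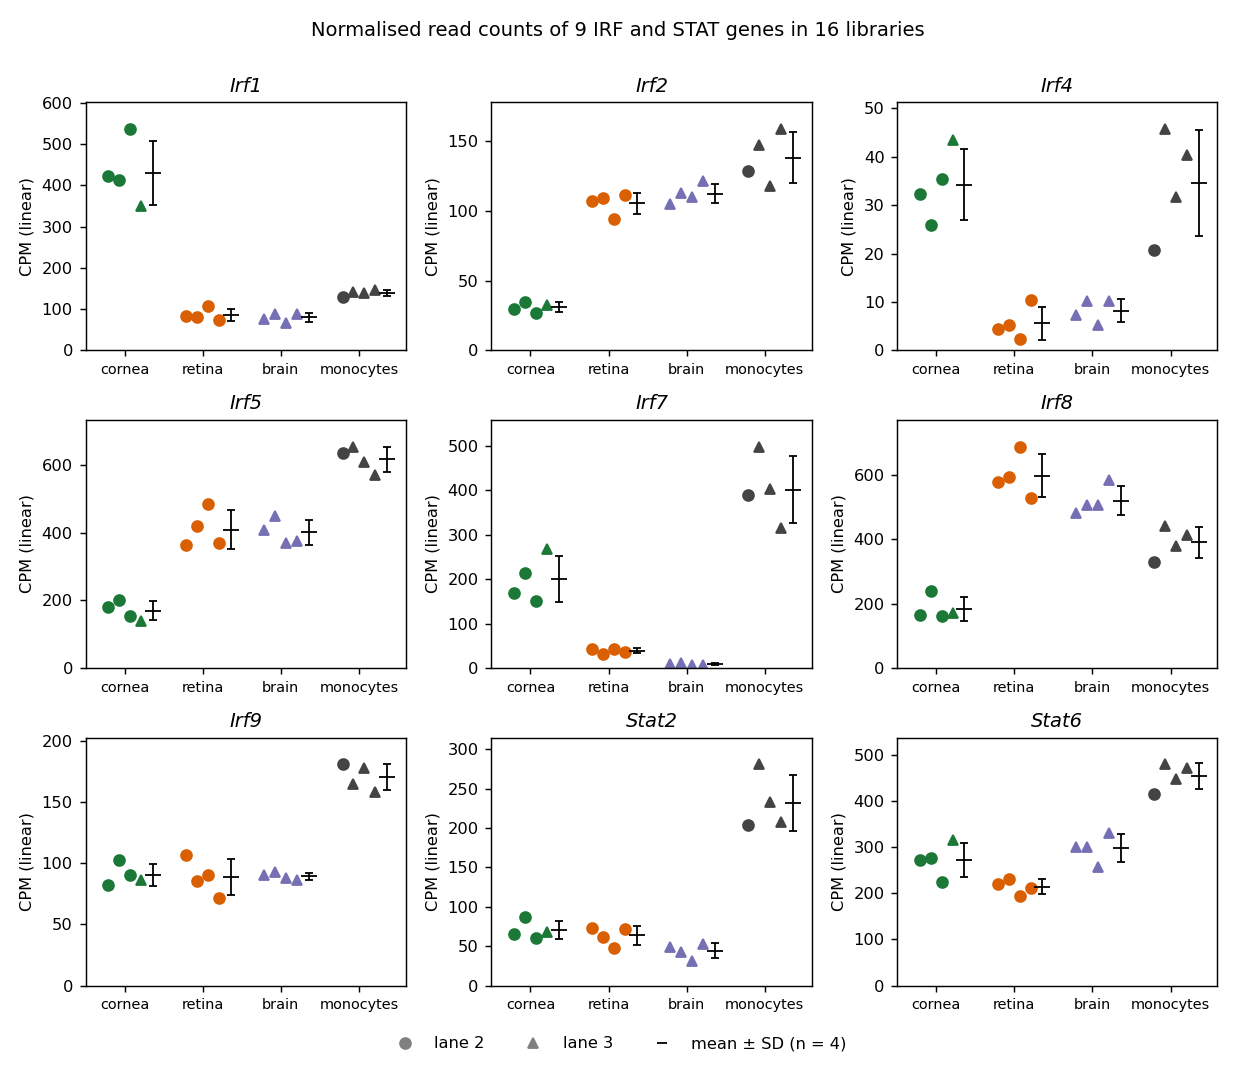
Normalised read counts of the 9 genes, in CPM on linear axes that start at 0. Each point is a library (circle for lane 2, triangle for lane 3) and each bar the mean ± SD of 4 libraries; Irf1 stood highest in cornea macrophages, Irf8 in the microglia of retina and brain, and Irf7, Irf9, Stat2 and Stat6 in bone marrow monocytes.

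Irf7 had the largest fold range of population means among the 9 genes. Its level was 389, 499, 404 and 315 CPM in the 4 monocyte libraries and 168, 213, 152 and 269 CPM in the cornea macrophage libraries. In retinal microglia it was 42.0, 31.8, 43.7 and 36.9 CPM, and in brain microglia 7.80, 11.0, 5.65 and 6.67 CPM. The populations thus stood in the order monocytes, cornea, retina and brain, and no library of a population reached into the range of the next. Between retinal and brain microglia the means were 38.6 ± 5.40 and 7.78 ± 2.31 CPM (SD, n = 4), a log2 fold change of 2.31 (SE 0.23, edgeR adjusted p = 4.13e-06). The cornea was above the retina by 2.38 (SE 0.21, edgeR adjusted p = 3.88e-08) and above the brain by 4.69 (SE 0.24, edgeR adjusted p = 3.17e-11). Monocytes were 51.8-fold above brain microglia and 10.4-fold above retinal microglia. Cornea macrophages were below monocytes by a log2 fold change of -1.002 (SE 0.20, edgeR adjusted p = 0.00039), which was -1.68 with total counts alone.

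No lane held both retinal and brain microglia, so their difference cannot be compared within a lane. With lane as a term, estimated from cornea and monocyte libraries, the Irf7 difference between them was 2.64 (edgeR adjusted p = 0.000128), and within lane 2 the cornea stayed above the retina by 2.18. The difference between cornea and monocytes was -1.14 within lane 2 and -0.60 within lane 3, where only cornea library 4 is left and the call ended (edgeR adjusted p = 0.126). Classical monocyte markers, which mark the population richest in Irf7, summed to 2.69 to 17.0 CPM in retinal and 5.14 to 11.4 CPM in brain libraries. Their part in the Irf7 result, and that of the photoreceptor transcripts in retinal libraries, was not tested.

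Stat2 and Irf9, which encode parts of ISGF3, were both highest in monocytes. Stat2 was 203, 281, 234 and 208 CPM in monocytes, 65.7, 86.7, 60.6 and 68.3 CPM in the cornea, 73.1, 61.6, 47.6 and 71.9 CPM in the retina and 48.7, 43.0, 31.4 and 53.2 CPM in the brain. Only the monocyte libraries stood clear of every other library, and the retinal range overlapped both its neighbours. Monocytes exceeded brain microglia 5.24-fold, retinal microglia 3.64-fold and cornea macrophages 3.29-fold, each with an edgeR adjusted p of at most 3.64e-07. Cornea macrophages were above brain microglia by a log2 fold change of 0.67 (SE 0.18, edgeR adjusted p = 0.00371), a difference that was -0.01 with total counts alone and 0.61 within lane 3, where the call also ended (edgeR adjusted p = 0.0588). Retina and brain differed by 0.53 (95% interval 0.14 to 0.91), which did not pass (edgeR adjusted p = 0.0772) but passed with total counts alone (0.65, edgeR adjusted p = 0.0346) and without retinal replicate 3 (0.64, edgeR adjusted p = 0.0281).

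Irf9 was 181, 165, 178 and 158 CPM in monocytes. In cornea macrophages it was 82.4, 103, 90.3 and 86.2 CPM, in retinal microglia 107, 85.6, 90.7 and 72.0 CPM, and in brain microglia 90.2, 92.7, 88.4 and 86.3 CPM. The last 3 populations had means of 90.5 ± 8.87, 88.8 ± 14.4 and 89.4 ± 2.74 CPM and could not be ordered. Their differences had 95% intervals of -0.23 to 0.29 (cornea minus retina), -0.24 to 0.28 (cornea minus brain) and -0.27 to 0.25 (retina minus brain) on the log2 scale with TMM, but total counts alone put the cornea below the retina (-0.76) and below the brain (-0.66). Monocytes were above each of them by 1.89-fold to 1.92-fold. Per kilobase, the ratio of Irf9 to Stat2 was 1.06 ± 0.11 in the cornea, 1.18 ± 0.30 in the retina, 1.72 ± 0.42 in the brain and 0.61 ± 0.10 in monocytes (mean ± SD, n = 4). With longest coding transcripts as lengths, Irf9 stood above Stat2 in monocytes too, at 57.7 and 52.6 CPM per kilobase. Of the exonic bases of Irf9, 2.28% are shared with Rnf31 on the same strand, so a small part of its reads cannot be assigned to either gene.

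Irf1, an activator induced by interferon-gamma through GAS elements, was the member highest in the cornea. Its level was 422, 414, 537 and 349.8 CPM in cornea macrophages, 129, 143, 139 and 147 CPM in monocytes, 82.5, 80.3, 108 and 72.5 CPM in retinal microglia and 76.0, 87.7, 66.9 and 88.9 CPM in brain microglia. The cornea libraries lay above all others, the monocyte libraries came next, and the microglia of retina and brain overlapped. Cornea macrophages exceeded retinal microglia by a log2 fold change of 2.33 (SE 0.16, edgeR adjusted p = 8.70e-10), brain microglia by 2.43 (SE 0.16) and monocytes by 1.63 (SE 0.15, edgeR adjusted p = 6.37e-08). The smallest of these, against monocytes, was 0.95 with total counts alone, where it passed (edgeR adjusted p = 2.58e-05), 1.82 within lane 2, with 1 monocyte library, and 1.29 within lane 3, with 1 cornea library. Irf1 was lower in both microglia than in monocytes, by -0.70 in the retina and -0.80 in the brain, and the former did not pass within lane 2 (-0.57, edgeR adjusted p = 0.132), where 1 monocyte library is left.

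Irf2, the factor that opposes IRF1, was lowest in the cornea, where Irf1 was highest. It was 29.4, 34.9, 26.6 and 32.3 CPM in the cornea, 107, 109, 94.0 and 111 CPM in the retina, 105, 113, 110.3 and 121 CPM in the brain and 128, 148, 118 and 159 CPM in monocytes. The cornea libraries lay below all libraries of the other populations, and the brain range overlapped that of its neighbours. Cornea macrophages were lower than retinal microglia by a log2 fold change of -1.77 (SE 0.13, edgeR adjusted p = 2.24e-09), than brain microglia by -1.87 (SE 0.13) and than monocytes by -2.17 (SE 0.13). Microglia of the retina were below monocytes by -0.39 (SE 0.12, edgeR adjusted p = 0.0115) and those of the brain by -0.30 (SE 0.12, edgeR adjusted p = 0.0476). The first of these calls ended with total counts alone (-0.27), with no filter, with lane as a term (-0.30), within lane 2 (-0.27) and without cornea 1, retina 1 and retina 3, the libraries with no letter b in their titles (-0.31); the second ended in 11 of 18 alternatives, without brain replicate 1, 2 or 3 or monocyte replicate 2 or 4 among them (-0.30 to -0.23). As a ratio per kilobase, Irf1 to Irf2 was 8.94 ± 2.62 in cornea macrophages, 0.52 ± 0.14 in retinal microglia, 0.44 ± 0.05 in brain microglia and 0.64 ± 0.07 in monocytes. The lowest cornea library had a ratio of 6.77 and the highest library of the other populations 0.73. These ratios rest on the gene lengths taken. With longest coding transcripts as lengths, Irf1 and Irf2 were 65.2 and 55.4 CPM per kilobase in monocytes and 40.1 and 42.2 in the retina. They were then 37.4 and 45.0 in the brain and 202 and 12.3 in the cornea.

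**Figure D2:**
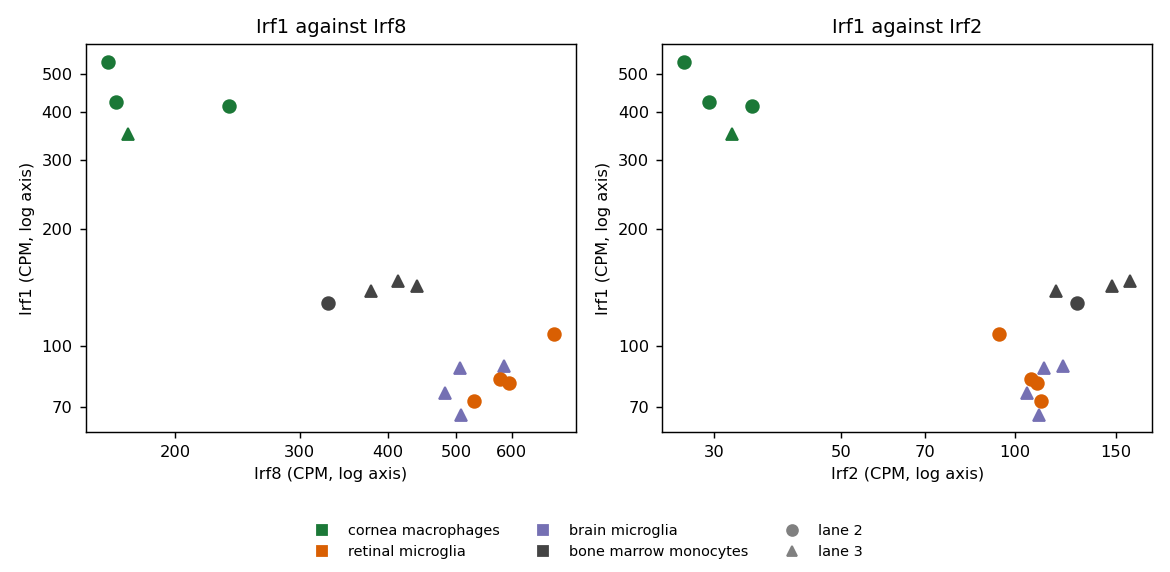
Irf1 against Irf8 (left) and against Irf2 (right) in 16 libraries, in CPM on log axes, with populations in colour and lanes by marker. The 4 cornea libraries stand alone at high Irf1 (349.8 to 537 CPM), low Irf8 and low Irf2 (26.6 to 34.9 CPM).

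Irf8, the microglia and monocyte factor, was highest in microglia. It was 577, 594, 688 and 529.6 CPM in the retina, 482, 507, 507 and 584 CPM in the brain, 329, 440.1, 379 and 414 CPM in monocytes and 165, 238, 160.5 and 171 CPM in cornea macrophages. The retina and brain ranges overlapped, and each lay above all monocyte libraries, which lay above all cornea libraries. Against monocytes the log2 fold change was 0.61 for the retina (SE 0.14, edgeR adjusted p = 0.00132) and 0.41 for the brain (SE 0.14, edgeR adjusted p = 0.019). The brain call ended without brain replicate 4 (0.35, edgeR adjusted p = 0.0659) or monocyte replicate 1 (0.34, edgeR adjusted p = 0.0724). Within lane 3 the brain difference was 0.36 (edgeR adjusted p = 0.0214). Within lane 2 the retinal difference was 0.88, against 1 monocyte library, the one with the lowest Irf8 level of the 4. Retina and brain differed by 0.20 (95% interval -0.10 to 0.50), which did not pass. Cornea macrophages were below monocytes by -1.09 (SE 0.14, edgeR adjusted p = 3.87e-06), below the brain by -1.50 (SE 0.14) and below the retina by -1.70 (SE 0.14).

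Irf4, the closest relative of Irf8 and a factor of interleukin-4 responses and of some dendritic cells, had the lowest level per kilobase in each population. It was 32.3, 25.8, 35.3 and 43.4 CPM in the cornea, 20.7, 45.8, 31.7 and 40.3 CPM in monocytes, 4.34, 5.23, 2.32 and 10.4 CPM in the retina and 7.20, 10.2, 5.26 and 10.2 CPM in the brain. Every cornea and monocyte library lay above every microglia library, and within each of these 2 pairs the ranges overlapped. The cornea exceeded the retina by a log2 fold change of 2.60 (SE 0.38, edgeR adjusted p = 1.28e-05) and the brain by 2.06 (SE 0.37, edgeR adjusted p = 0.000124), with 2.45 within lane 2 and 2.38 within lane 3, where 1 cornea library is left. Monocytes exceeded retinal microglia 6.13-fold and brain microglia 4.21-fold. Cornea and monocytes differed by -0.01, with a 95% interval of -0.76 to 0.73 (-0.69 with total counts alone, edgeR adjusted p = 0.11), and retina and brain by -0.54, with an interval of -1.33 to 0.24. The ratio of Irf8 to Irf4 per kilobase was 3.81 ± 1.602 in the cornea and 7.98 ± 1.88 in monocytes, against 99.3 ± 70.2 in the retina and 45.2 ± 13.7 in the brain. Summed conventional dendritic cell markers were likewise higher in cornea and monocyte than in microglia libraries: 82.6 to 176 CPM in cornea libraries, with all 8 markers detected, 141 to 192 CPM in monocytes (Ccr7 at 0), 12.7 to 21.4 CPM in the retina (all 8 detected) and 15.6 to 21.8 CPM in the brain (Clec9a and Dpp4 at 0). By mean, only Flt3, Cd209a and Dpp4 were higher in both cornea and monocytes than in both microglia. Zbtb46, Xcr1 and Ccr7 were higher in the cornea alone, and Clec9a was at most 1.28 CPM anywhere. Itgae went the other way, at 0.48 CPM in the cornea and 1.10 in monocytes, against 4.62 in the retina and 8.14 in the brain. The part of these markers in the Irf4 result was not tested.

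Irf5, which acts below Toll-like receptors, was 635, 655, 610.0 and 569.8 CPM in monocytes. It was 363, 419.8, 486 and 369 CPM in the retina, 409, 449, 370.1 and 376 CPM in the brain and 179, 202, 155 and 138 CPM in the cornea. Monocytes stood highest, the microglia of retina and brain overlapped fully in the middle, and the cornea stood lowest. Cornea macrophages were below retinal microglia by a log2 fold change of -1.28 (SE 0.13, edgeR adjusted p = 2.71e-07), below brain microglia by -1.25 and below monocytes by -1.87 (SE 0.14). Monocytes exceeded the retina 1.51-fold and the brain 1.54-fold; the first of these did not pass within lane 2 (log2 fold change of retina minus monocytes -0.61, edgeR adjusted p = 0.0788). Retina and brain differed by 0.03, with a 95% interval of -0.25 to 0.31. Of the exonic bases of Irf5, 14.1% are shared with Tnpo3 on the opposite strand, and the strand setting of the counting is not stated, so some of its reads may belong to Tnpo3.

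Stat6, the transducer of interleukin-4 and interleukin-13, was highest in monocytes. It was 417, 481, 449 and 472 CPM in monocytes, 301, 302, 258 and 332 CPM in the brain, 273, 277, 224 and 316 CPM in the cornea and 219.6, 232, 195 and 212 CPM in the retina. Monocytes lay above all other libraries, brain above retina, and the cornea overlapped both microglia. Monocytes exceeded brain microglia by 1.53-fold, cornea macrophages by 1.67-fold and retinal microglia by 2.12-fold, each with an edgeR adjusted p of at most 0.000316. Retinal microglia were below brain microglia by a log2 fold change of -0.47 (SE 0.12, edgeR adjusted p = 0.0166), a call that ended in 6 alternatives, with lane as a term (-0.24, edgeR adjusted p = 0.511) and without brain replicate 4 (-0.42, edgeR adjusted p = 0.0606) among them. The cornea was above the retina by 0.34 (SE 0.12, edgeR adjusted p = 0.0171) with TMM but below it by -0.45 (edgeR adjusted p = 0.00298) with total counts alone, and within lane 2 the difference was 0.24 and did not pass. Without cornea replicate 4 it was 0.25 and did not pass either. Cornea and brain differed by -0.13 (95% interval -0.38 to 0.12) with TMM, which did not pass, and by -0.80 with total counts alone, which did (edgeR adjusted p = 1.66e-05).

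Counted by pair, 2 of the 9 members were called between the microglia and 7 to 9 in every other pair. Calls over all genes were also fewest between the microglia, so this pattern is not particular to the members. Of the 9 members, 1 was higher in the retina than in the brain (Irf7), where 6.95% of all genes were, and 1 was lower (Stat6), where 3.6% were. Between cornea and retina, 4 were higher in the cornea (Irf1, Irf4, Irf7 and Stat6; 30.9% of all genes) and 3 higher in the retina (Irf2, Irf5 and Irf8; 35.1%). Between cornea and brain, 4 were higher in the cornea (Irf1, Irf4, Irf7 and Stat2; 33.8% of all genes) and the same 3 higher in the brain (33.1%). Against monocytes, only Irf1 was higher in the cornea (32.2% of all genes) and 7 were lower (31.1%), Irf4 being the member that passed in neither direction. In both microglia, Irf8 alone was above monocytes (32.2% of all genes in the retina and 28.5% in the brain) and the other 8 were below (27.1% and 27.4%). The median log2 fold change of the members was -1.002 for cornea minus monocytes, -0.94 for retina minus monocytes and -0.80 for brain minus monocytes, beside medians of 0, 0.12 and 0.04 over all genes. Comparisons that share a population also share its libraries.

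**Figure D3:**
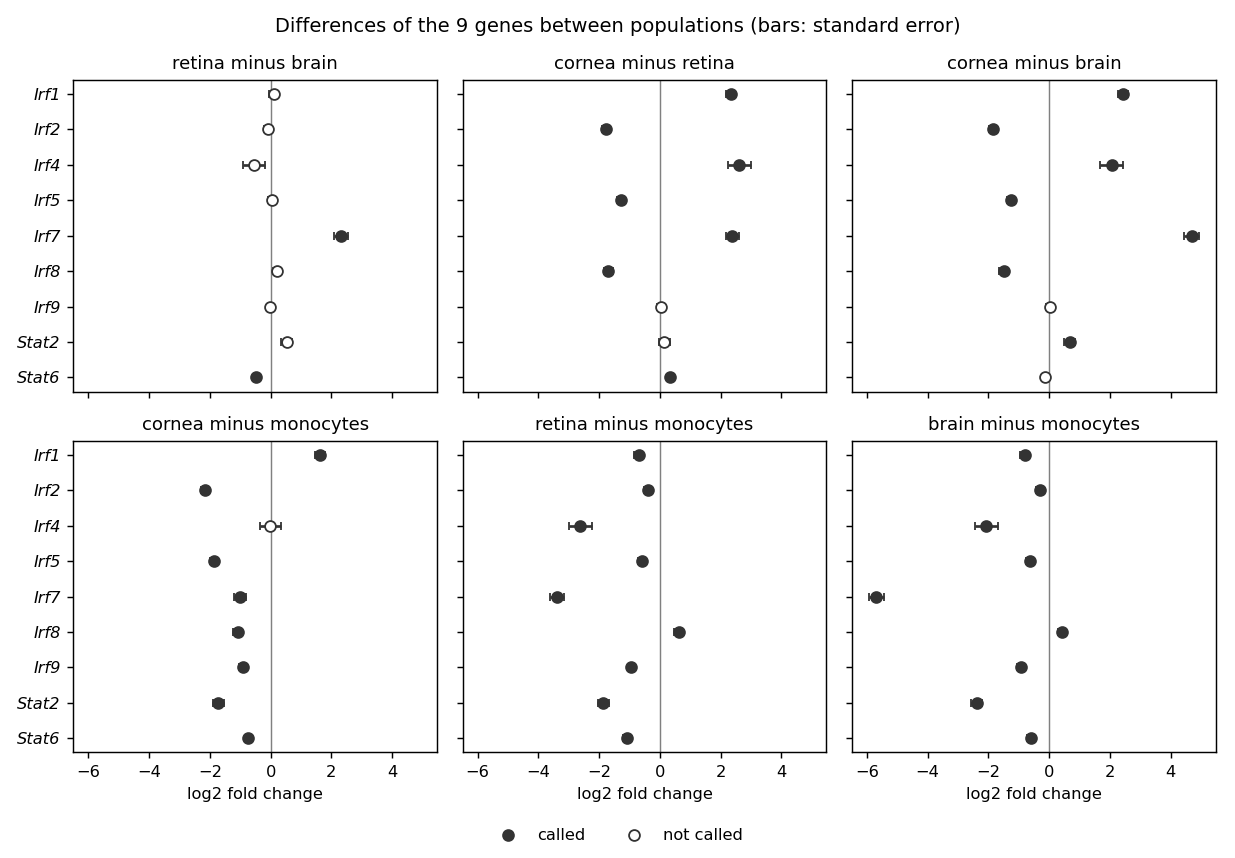
Log2 fold changes of the 9 genes in 6 comparisons, the first-named population minus the second, with standard errors; filled points were called at an adjusted p under 0.05 and open points were not. Retina minus brain has 2 filled points, Irf7 at 2.31 and Stat6 at -0.47, and in both comparisons of microglia with monocytes every point but Irf8 lies below 0.

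Levels of different genes were compared per kilobase of the gene length in the deposited table. On that scale Irf1 led in the cornea (108 CPM per kilobase), ahead of Irf7 (66.4), Stat6 (62.0) and Irf5 (58.1). In the retina Irf5 (141) stood above Irf8 (84.6), Stat6 (48.8) and Irf2 (42.4), and in the brain the same 4 led, with 138, 73.7, 67.7 and 45.2. In monocytes Irf5 (213) led, ahead of Irf7 (133) and Stat6 (103). Irf4 was last in each population, at 1.18 to 7.34 CPM per kilobase. The place of Irf8 rests on its length, which is 7055 bases in the table and 2847 bases for its longest coding transcript in GENCODE vM21. With coding transcripts as lengths, the log2 ratio of Irf8 to Irf5 went from -0.73 to 0.20 in the retina and from -0.90 to 0.03 in the brain, so the order of these 2 genes in microglia depends on the transcript assumed. With these lengths Irf8 (137) also passed Stat6 (120) in monocytes, and Irf5 (75.3) passed Stat6 (72.2) in the cornea, in CPM per kilobase.

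Other genes of the family were measured beside the members. Stat3, Stat4 and Stat5a were higher in the cornea than in retina or brain, with Stat3 at 781 ± 149 against 193 ± 44.0 CPM (retina) and 252 ± 22.3 CPM (brain). In the other direction, Irf3, Irf2bp1, Irf2bp2, Irf2bpl and Stat5b were lower in the cornea than in retina and brain. Between retina and brain, Irf3 was higher (45.8 ± 7.99 against 28.3 ± 3.91 CPM) and Irf2bp2 lower (197 ± 26.1 against 285 ± 23.3 CPM), and both calls ended with lane as a term. The call of Irf3 also ended without retinal replicate 3 or without brain replicate 3 or 4.

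Upstream of the members, the ligand Ifnb1 was the only 1 of 8 interferon genes with enough counts to test. It had 11.2 ± 6.19 CPM in the cornea and 0.46 ± 0.72 CPM in the retina (log2 fold change 4.56, SE 1.11, edgeR adjusted p = 0.00368). No brain or monocyte library had an Ifnb1 count, and with a floor of 3 counts summed over the 4 libraries the cornea was higher by at least 7.41 and 7.74 on the log2 scale. Among 7 receptor genes tested, 3 were higher and 3 lower in the cornea in each of its comparisons, where 30.9% to 33.8% of all genes were higher and 31.1% to 35.1% lower. With total counts alone 2 were higher and 4 lower than in the retina or monocytes, Ifnar1, a chain of the type I interferon receptor, no longer being called higher. The interleukin-4 receptor gene Il4ra was 599 ± 92.2 CPM in the cornea, 267 ± 28.7 in the retina, 259.5 ± 25.2 in the brain and 104 ± 11.5 in monocytes. Its partner chain Il2rg was 433 ± 83.9, 23.3 ± 6.47, 6.97 ± 1.57 and 84.5 ± 14.3 CPM in the same order, and Ifngr1, a chain of the interferon-gamma receptor, 133 ± 10.1, 1116 ± 83.7, 1543 ± 76.2 and 670.1 ± 23.7 CPM. Ifngr1 was thus lowest in the cornea, while the other chain, Ifngr2, was 320 ± 40.4, 300 ± 19.2, 297 ± 22.6 and 269 ± 9.78 CPM in the same order. Any relation of these 2 chains to the Irf1 level was not tested. Of the 4 Janus kinases, Jak1 and Jak2 were higher in the cornea than in each other population, while Tyk2, which serves the type I interferon receptor, was 186 ± 16.5 CPM in monocytes and 29.6 ± 1.88 CPM in the cornea; with total counts alone the call of Jak2 against monocytes ended.

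Among 22 sensors and kinases upstream of IRF activation, 8 were higher and 10 lower in the cornea than in the retina (30.9% and 35.1% of all genes), and 10 and 10 against the brain (33.8% and 33.1%). Ikbke, a kinase that phosphorylates IRF3 and IRF7, was 148 ± 37.4 CPM in the cornea, 52.6 ± 6.98 in monocytes, 0.27 ± 0.14 in the retina and 0.07 ± 0.09 in the brain. Ifih1, a sensor of cytosolic RNA, was 575 ± 20.5 CPM in the cornea and 30.6 ± 7.32 CPM in the retina. In the other direction, Tlr3 (9.48 ± 3.71 against 108 ± 28.5 CPM) and Tmem173, which encodes the adaptor STING (49.8 ± 9.23 against 439 ± 76.1 CPM), were lower in the cornea than in the retina. Between retina and brain, 2 were higher and 4 lower, beside 6.95% and 3.6% of all genes. The number lower was 1 or 2 when any of the 8 libraries was left out and 0 with total counts alone. With that scaling, 6 rather than 10 were higher in the cornea than in the brain.

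Genes that ISGF3 is known to induce, in a list of 20 that does not hold the members, differed in the same direction as Irf7 in the comparisons that involve microglia. Of the 20, 17 were higher and 0 lower in the retina than in the brain (median log2 fold change 1.55, beside 0.05 over all genes), 19 and 0 in the cornea than in the retina (2.53, beside -0.12), and 20 and 0 in the cornea than in the brain (4.14, beside -0.0014). Of all genes, 6.95%, 30.9% and 33.8% were higher in these comparisons. Against monocytes, 0 were higher and 19 lower in the retina (-2.43, beside 0.12), and 0 and 20 in the brain (-4.15, beside 0.04). The shares of all genes lower than in monocytes were 27.1% in the retina and 27.4% in the brain. Irf9 and Stat2, the ISGF3 parts among the members, did not follow this list throughout. Among cornea, retina and brain, Irf9 was called in no comparison (log2 fold changes of -0.01 to 0.03) and Stat2 only between cornea and brain (0.67). Both were lower in each microglia than in monocytes. Rsad2, which encodes viperin, was 922 ± 215 CPM in the cornea, 117 ± 7.62 in monocytes, 12.2 ± 4.76 in the retina and 2.05 ± 1.58 in the brain. With lane as a term, 10 rather than 17 were higher in the retina than in the brain, with a median of 1.90, and Mx1 (29.1 ± 5.34 against 5.03 ± 3.72 CPM) was among those no longer called.

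Between cornea and monocytes, 8 of the 20 were higher and 5 lower in the cornea (median -0.08), beside 32.2% and 31.1% of all genes, while Irf7, Irf9 and Stat2 were lower. With total counts alone 4 were higher and 12 lower, and within lane 2, with 1 monocyte library, 4 were higher and 2 lower. Oasl1, a brake on Irf7 translation, was 1457 ± 394 CPM in the cornea and 44.2 ± 3.39 CPM in monocytes (log2 fold change 5.04, SE 0.38, edgeR adjusted p = 4.44e-09). Oas3 went the other way, with 38.3 ± 11.1 CPM in the cornea and 139.7 ± 19.8 CPM in monocytes (-1.86, SE 0.38, edgeR adjusted p = 0.000355).

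Targets of IRF1 and of the class I transactivator were called in both directions in the cornea. Of 13 tested, 6 were higher and 5 lower in the cornea than in the retina (30.9% and 35.1% of all genes; median log2 fold change 0.35, beside -0.12 over all genes) and 6 and 4 against the brain (33.8% and 33.1%; 0.59, beside -0.0014). The higher ones included Ciita, the master regulator of MHC class II genes (23.2 ± 5.77 against 0.57 ± 0.41 CPM in the retina), Gbp2 (212 ± 71.5 against 11.2 ± 7.34 CPM) and Cd274, which encodes PD-L1 (324 ± 98.7 against 11.8 ± 1.40 CPM in the brain). The lower ones were genes of peptide supply to MHC class I, such as the proteasome subunit Psmb9 (12.5 ± 1.06 against 34.5 ± 8.35 CPM in the retina) and the transporter Tap2 (54.5 ± 6.58 against 129 ± 10.5 CPM). Against monocytes, 3 were higher and 7 lower in the cornea, beside 32.2% and 31.1% of all genes. The number higher was 1 to 5 among the alternatives. In the retina, 1 was higher than in monocytes (Cd274) and 11 lower (median -1.12, beside 0.12), beside 32.2% and 27.1% of all genes. In the brain, 1 was higher (Cd274) and 11 lower (median -1.30, beside 0.04), beside 28.5% and 27.4%. Among these brain calls, that of Cd274 ended with lane as a term and that of Tapbp with RLE factors. Between retina and brain, 2 were higher in the retina (Nlrc5 and Cd274) and 1 lower (Gbp3), beside 6.95% and 3.6% of all genes.

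Genes that macrophages are known to switch on through STAT6 differed far more than Stat6 itself. Of 11 tested, 9 were higher and 0 lower in the cornea than in the retina, beside 30.9% and 35.1% of all genes. Against the brain the counts were also 9 and 0, beside 33.8% and 33.1%. The median log2 fold changes were 7.39 and 6.35, beside -0.12 and -0.0014 over all genes. Against monocytes, 8 were higher and 2 lower in the cornea (median 5.96, beside 0), while Stat6 was lower there. Of all genes, 32.2% were higher and 31.1% lower. The counts were 3 and 6 in the retina (32.2% and 27.1%) and 4 and 5 in the brain (28.5% and 27.4%). Arg1 was among the higher genes in each, and its retinal call ended with lane as a term. Pparg, a lipid-sensing nuclear receptor, was 178 ± 37.9 CPM in the cornea and had no count in the retina, so that the cornea was higher by at least 12.1 on the log2 scale with the same floor. Mgl2, a lectin, was 266 ± 98.2 CPM in the cornea and 0.58 ± 0.60 CPM in the retina. Arg1 (2.79 ± 1.53 CPM in the cornea) and Chil3 were not called against retina or brain, and Retnla of the same list had no cornea count. Chil3 and Mrc1 also stand on the marker lists of classical monocytes and of tissue macrophages, so their levels partly restate which population was sorted. Monocytes, which had the most Stat6, held Chil3 at 5573 ± 1303 CPM, against at most 0.79 ± 1.19 CPM elsewhere, but Tgm2, a transglutaminase, at 0.99 ± 0.59 CPM, against 585 ± 72.0 CPM in the cornea, 42.0 ± 13.4 in the retina and 86.1 ± 8.27 in the brain. Between retina and brain, 0 were higher and 5 lower (Mrc1, Ccl22, Ccl24, Pparg and Tgm2), beside 6.95% and 3.6% of all genes. The number lower was 2 or 3 when any of the 8 libraries was left out and 2 with lane as a term.

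Of 17 negative regulators of the pathway, 10 were higher in the cornea than in the retina and 3 lower (30.9% and 35.1% of all genes), and 10 and 4 against the brain (33.8% and 33.1%). With total counts alone these counts were 7 and 5, and 8 and 6, with Pias2 and Ptpn11 no longer called in either and Socs4 not against the retina. Socs3, a feedback inhibitor of STAT3 signalling, was 742 ± 253 CPM in the cornea, 91.9 ± 37.2 in the retina, 36.9 ± 7.37 in the brain and 4.76 ± 1.38 in monocytes. The members had no common order of population means, and none of them had this one. Cish, a target and inhibitor of STAT5, was 27.0 ± 3.48 CPM in the cornea and at most 0.85 ± 0.62 CPM elsewhere. Usp18, which blocks the type I interferon receptor, ran parallel to Irf7, with 204 ± 14.2 CPM in monocytes, 123 ± 25.5 in the cornea, 47.6 ± 14.3 in the retina and 17.0 ± 3.93 in the brain. Among 9 tested binding partners of IRF4 and IRF8, 5 were higher and 3 lower in the cornea than in the retina, beside 30.9% and 35.1% of all genes. Batf, which pairs with IRF4, was 35.2 ± 3.83 CPM in the cornea, 12.3 ± 0.75 in monocytes, 4.90 ± 2.13 in the retina and 2.45 ± 0.41 in the brain, and Batf3, the partner of IRF8, was 0.82 ± 0.42, 6.94 ± 3.16, 22.0 ± 6.85 and 12.6 ± 1.86 CPM in the same order.

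**Figure D4:**
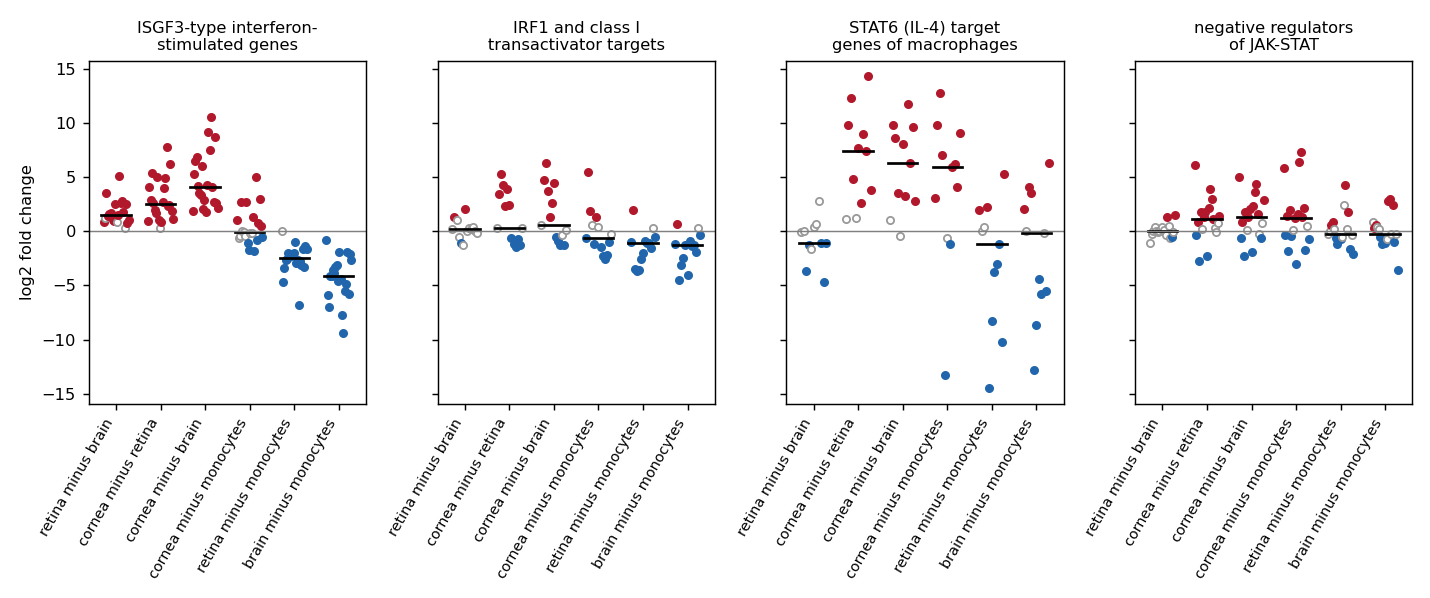
Log2 fold changes of the tested genes of 4 lists in 6 comparisons, first-named population minus second; each point is a gene (red called higher, blue called lower, open not called) and each black line the list's median. Fitted values beyond about 10 belong to genes with few or no counts in 1 population and are not bounds. The median of the interferon-stimulated list lies above 0 in 3 comparisons and below 0 in both comparisons of microglia with monocytes. Between cornea and monocytes it is -0.08.

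The genes whose log2 level ran most like each member over the 16 libraries were taken from 10876 candidates by Pearson's r. These values mostly repeat the 4 population means, on shared lanes and scaling factors, and carry no test. For Irf7 they were Ifi27l2a (0.991), Usp18 (0.986) and Oasl2 (0.985), all of them interferon-stimulated. For Irf1 they were Gm10116, Slc48a1 and Pdxk (0.983 to 0.985), for Irf2 Rassf5, Rab27a and Sash3 (0.985 to 0.986) and for Irf5 Abhd17a, Tor1a and Gm3934 (0.981 to 0.984). Irf8 ran with Mogs, Dph7 and Orai1 (0.977 to 0.984), Irf9 with Ly6c1, Relt and Hp (0.963 to 0.970), and Stat2 with Camkk2, Usp1 and Cyp4f16 (0.967 to 0.970). Irf4 had Ankrd13a, Cers6 and AI662270 (0.952 to 0.955) and Stat6 had Sec23ip, Clec4a3 and Ranbp9 (0.936 to 0.958). No member was among the 3 nearest genes of another.

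On build GRCm38, GENCODE vM21 gives these positions for the 9 protein-coding genes. Irf1 lies on chromosome 11 (53770014 to 53778374, plus strand) and Irf2 on chromosome 8 (46739732 to 46847458, plus). Irf8 lies on the same chromosome as Irf2 (120736358 to 120756694, plus). Irf4 lies on chromosome 13 (30749226 to 30766976, plus), Irf5 on chromosome 6 (29526625 to 29541871, plus), Irf7 on chromosome 7 (141262706 to 141266481, minus) and Irf9 on chromosome 14 (55603571 to 55610030, plus). Stat2 (128270559 to 128292849, plus) and Stat6 (127642986 to 127660957, plus) lie near each other on chromosome 10. Exonic overlap with a gene on the opposite strand was 3.4% for Irf1 (Gm17334), 1.19% for Irf7 (Phrf1) and 0.909% for Stat6 (Nab2), beside the overlaps of Irf5 and Irf9 given above.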

How the data were processed

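Total RNA of 16 libraries was measured, 4 for each of 4 populations. The authors deposited whole-number read counts per gene, not normalized, and a gene length in bases, per the file headers. CASAVA 1.8.2, Subread, featureCounts, limma and build GRCm38.p4 are named without order, per the submitters' processing notes. Annotation release, strand setting and the handling of multi-mapped reads are not stated there. The extraction text in the labels describes brainstem tissue of another mouse line after nerve axotomy, so the library kit was treated as uncertain. Groups follow title, source and population, although the description of the 8 brain and bone marrow libraries names retinal microglia. Replicate numbers follow deposition order.

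From the counts, genes were filtered by population with edgeR's filterByExpr (minimum count 10), which left 15754 of 45664 entries; 27 entries whose symbols had become dates were kept as they are. All 16 libraries were fitted with edgeR 4.0.16 in R 4.3.3, with TMM scaling and population as the only term, and 6 pairs were compared by its quasi-likelihood test, with p-values adjusted (Benjamini-Hochberg) over every tested gene and called under 0.05. The standard error (SE) is the absolute log2 fold change over the square root of F. Levels are mean ± SD, n = 4. Depth was 8.68 to 21.8 M counts per library; floors of 3 counts cover counting error only, since reads carry no molecular identifiers. The fit was tested on simulated data. DESeq2 1.42.0, limma 3.58.1, other scalings, no filter, lane, title range and left-out libraries were alternatives. No 2 libraries of a population were copies: the chi-square of their counts was 11.3 to 95.5 per degree of freedom in 24 pairs.

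The members and gene lists were chosen with earlier results of these data known, so no list is independent support. Named genes were the members, the 3 genes most like each, up to 2 higher and 2 lower called genes of each list and comparison with at least 10 CPM in the higher population and no overlap of libraries, and genes that a count of 5 or fewer needs. Levels are printed in further populations once a gene is named, and some genes of the lists are not reported here. Promoters come from RefSeq, gene positions and transcript lengths from GENCODE vM21. Protein sequences were not used here.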

Additional observations from a re-analysis of the deposited data

Results flagged for a closer look

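Irf8 stood apart in cornea library 2, at 238.26 CPM, while the other 3 cornea libraries lay between 160.5 and 171 CPM. The gap to the nearest library made up 0.861 of the group's range, above the critical value of Dixon's test for 4 libraries. Each of the 9 genes was examined in each population, 36 groups in all, of which chance flags about 1 in 20. The library still lay below every monocyte, brain and retinal library for this gene.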

How the results depend on the processing

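Of 54 differences (9 genes in 6 comparisons), 34 kept their direction and their side of the threshold under every alternative run, and 20 did not. In 12 the sign changed under at least 1 alternative; of these, Stat6 between cornea and retina and Stat2 between cornea and brain were called, and the other 10 were not. With total counts alone, the differences of cornea and retina were -0.76 for Irf9, -0.66 for Stat2 and -0.45 for Stat6, those of cornea and brain -0.66 for Irf9 and -0.0059 for Stat2, and those of retina and brain 0.033 for Irf2 and 0.11 for Irf9. With lane as a term, retina minus brain was -0.021 for Irf1, 0.024 for Irf2, 0.16 for Irf4 and -0.18 for Irf5, cornea minus brain -0.061 for Irf9 and 0.038 for Stat6, and cornea minus monocytes 0.37 for Irf4. Within lane 3, cornea minus brain was -0.074 for Irf9 and 0.063 for Stat6. Cornea minus monocytes for Irf4 was 0.072 with RLE factors, 0.071 with DESeq2, 0.097 with limma-voom, 0.0013 with no filter, 0.057 with only these populations fitted, 0.58 within lane 2, 0.14 within lane 3 and 0.0033 without the 3 libraries lacking the letter b. Without those 3, retina minus brain was -0.069 for Irf1 and -0.027 for Irf5. With no filter, it was 0.011 for Irf9. Leaving out single libraries gave ranges of -0.029 to 0.17 (Irf1), -0.063 to 0.088 (Irf5) and -0.11 to 0.079 (Irf9) for retina minus brain, -0.067 to 0.12 (Irf9) for cornea minus retina, -0.075 to 0.036 (Irf9) for cornea minus brain and -0.20 to 0.14 (Irf4) for cornea minus monocytes. The cause of these changes was not tested.

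The number of members called between retina and brain, 2 in all libraries, was 1 (Stat6 lost) with no filter, with lane as a term, with the replicate block and without the 3 libraries lacking the letter b, and 1 to 3 when single libraries were left out (1 without brain replicate 4, 3 without retinal replicate 3). The replicate block used the number ranges that titles of 2 brain and 2 monocyte libraries share. Deviations of libraries with the same range correlated at -0.0096 and 0.033 over 15754 genes. With 1 library of each cell type per range, these values cannot show whether the libraries share animals. The pairing thus rests on the shared number only. Under the block, retina minus brain was -0.049 for Irf5 and cornea minus brain -0.010 for Irf9, Stat6 between retina and brain (-0.47, edgeR adjusted p = 0.0579) and Irf2 between brain and monocytes (-0.29, edgeR adjusted p = 0.0513) no longer passed, and 1 rather than 5 STAT6 targets were lower in the retina than in the brain. With coding transcripts as lengths, a choice added after seeing the data, the log2 ratio of Irf8 to Irf5 per kilobase became 0.20 in the retina and 0.030 in the brain. Depth was low for Irf4 in the retina (43 to 259 counts per library) and for Irf7 in the brain (57 to 108).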
